A study of Homo sapiens with 16 samples.

Results

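Open chromatin was followed at 5 genes that govern the entry into the cell cycle: CDK6, CCND3, CCND2, CDKN2A and CDKN2B. All peaks of 16 ATAC-seq libraries that fell in 4 windows were taken, 1 window each around CDK6, CCND3 and CCND2 and 1 around the neighbouring CDKN2A and CDKN2B. In hg19 coordinates the windows ran from 92225000 to 92475000 on chromosome 7 (CDK6), from 41895000 to 42025000 on chromosome 6 (CCND3), from 4370000 to 4425000 on chromosome 12 (CCND2) and from 21960000 to 22020000 on chromosome 9 (CDKN2A and CDKN2B). Overlapping peaks (1 base or more, across libraries) were joined into regions, which gave 70 regions with 472 peaks, out of 131357 regions in the whole series. The windows were set by gene position and not by peak values, but the genes were chosen with earlier results of these data known. The libraries came from MOLT4 and DND41, established cell lines from human T-cell acute lymphoblastic leukaemia, without any engineered change given in the labels. Cells of each line received 100 nM ACBI-1 or the solvent DMSO for 24 h or 3 h, which makes 8 groups of 2 libraries. ACBI-1 is a PROTAC, a molecule that marks SMARCA2 and SMARCA4, the ATPases of the SWI/SNF nucleosome remodelers, and the subunit PBRM1 for degradation. Whether paired libraries were grown as separate cultures is not stated in the labels, so p-values reflect library-to-library spread that may be technical.

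D-type cyclins bind CDK4 or CDK6, and these kinases phosphorylate the retinoblastoma protein, which frees E2F factors to switch on genes for DNA replication. CDKN2A and CDKN2B hold the brakes on this step: p16 and p15 bind CDK4 and CDK6 and keep the cyclins off. CDKN2A also encodes p14ARF from an upstream start, a protein of the p53 pathway that blocks MDM2, and the locus is often deleted in T-cell leukaemia. In mice, developing T cells need CDK6 and cyclin D3 to expand.

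Peak lists hold positions only, so a region either had a peak in a library or had none, and the measured size of a peak was its width. Read depth is unknown. ACBI-1 libraries listed 26145 to 33870 peaks and DMSO libraries 39117 to 46712, and regions carrying a peak were fewer, a change of -27.9% with ACBI-1 over the whole genome (exact permutation p = 0.00154, the smallest the design can give). A lower number of regions in a window is therefore set beside this genome-wide value. The starts of the T-cell genes CD3E, CD3D, CD3G and CD7 had a peak in all 16 libraries and that of CD2 in 10, which were 3 of 8 ACBI-1 and 7 of 8 DMSO libraries. At CD7, with 2 regions near the start, the peaks summed to 287 bp on average with ACBI-1 and 540 bp with DMSO. This summed width was not tested. The CD7 region tested for width, from 80274809 to 80275719 on chromosome 17, was narrower with ACBI-1 (exact permutation test, adjusted p = 0.0473). Of the regions found in all 16 libraries, 3.25% were called narrower with ACBI-1 and 0.0166% wider. No library had a peak at the B-cell gene MS4A1 or the myeloid genes SPI1 and MPO. CD79A, another B-cell gene, had a peak in 0 MOLT4 and 5 of 8 DND41 libraries.

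Of the 70 regions, 26 were found in a single library, 35 in at least 4 and 12 in all 16. Of the regions in at least 4 libraries across the genome, 26.7% were found in all 16. The CDK6 window held most of the regions, 45, of which 22 were in a single library. The CCND3 window held 14, the CCND2 window 3 and the CDKN2A and CDKN2B window 8. A region was tested for treatment or line only where its numbers of peaks allowed a p of 0.05 or less, with labels exchanged within line and time for treatment, and within time and treatment for line. Only 8 of the 70 could be tested for treatment and 8 for line. Adjusted over all tested regions of the genome at 0.05, 1 of the 8 was lower with ACBI-1 and 0 higher, against 27.9% lower and 0.111% higher among all 8082 tested regions. At an unadjusted p under 0.05, 4 of the 8 were lower, against 56.7% of all tested regions. Neither share lay above that of the whole genome. For line, 1 of the 8 was higher in MOLT4 and 3 were lower, against 40.8% higher and 23.3% lower of 11709 tested.

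CDK6, the kinase, had fewer regions with a peak after ACBI-1, by about the same share as the whole genome. The lowest, median and highest number of regions per library were 9, 11 and 14 with ACBI-1, and 13, 15 and 19 with DMSO. The ranges overlapped over all libraries, but within each line and time both ACBI-1 libraries lay below both DMSO libraries. MOLT4 libraries had 12 and 11 with ACBI-1 against 15 and 13 with DMSO at 24 h, and 10 and 14 against 15 and 19 at 3 h. DND41 libraries had 12 and 9 with ACBI-1 against 17 and 14 with DMSO at 24 h, and 10 and 11 against 19 and 14 at 3 h. The mean was 11.1 ± 1.55 regions with ACBI-1 and 15.8 ± 2.31 with DMSO (SD, n = 8 each), a difference of -4.63 regions or -29.4% (exact permutation test, adjusted p = 0.0181). Of 8760 windows of the same width across the genome, 31.5% were called lower and 0.0228% higher. With each list cut to its 26145 widest peaks the difference was -0.75 regions (exact permutation p = 0.0833) and was no longer called. By line, where 15.8% of such windows were lower in MOLT4 and 17.1% higher, the means were 13.6 ± 2.83 in MOLT4 and 13.3 ± 3.45 in DND41 (SD, n = 8 each; adjusted p = 0.903 by exact permutation).

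**Figure D1:**
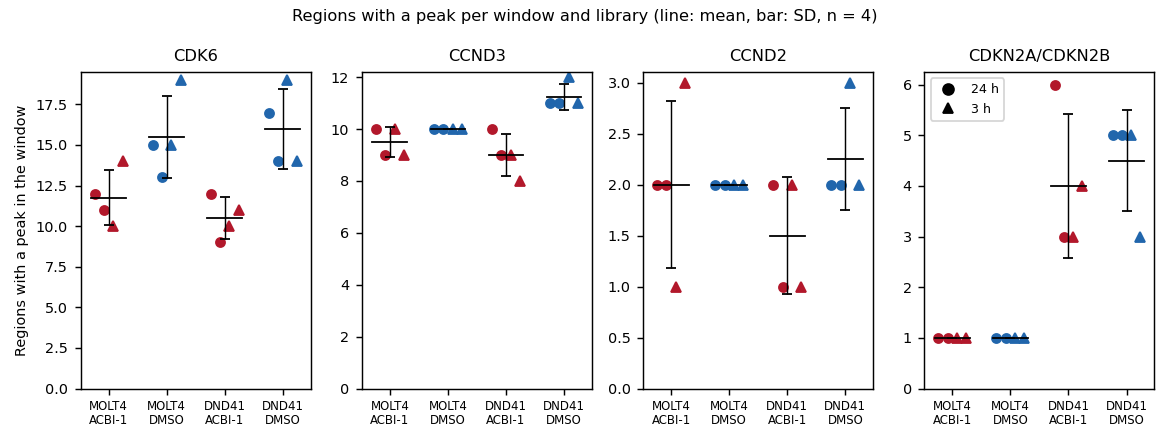
Regions with a peak in each window, per library, for MOLT4 and DND41 with ACBI-1 or DMSO. Circles are 24 h and triangles 3 h libraries, and the line and bar are the mean and SD of 4 libraries. The CDK6 counts lie lower with ACBI-1 in both lines, and every MOLT4 library has 1 region in the CDKN2A and CDKN2B window.

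The CDK6 starts themselves kept their peaks. The region at the main start, from 92462221 to 92463807 on chromosome 7, and that at an upstream start, from 92465535 to 92466421, each had a peak in all 16 libraries. At the main start the peak was 1038 ± 253 bp wide with ACBI-1 and 982 ± 282 bp with DMSO (SD, n = 8 each). At the upstream start it was 619 ± 113 bp with ACBI-1 and 619 ± 133 bp with DMSO (SD, n = 8 each). Neither width differed beyond the spread between libraries (exact permutation test, adjusted p = 0.901 for the main and 0.956 for the upstream start). At the main start the MOLT4 widths were 924 to 1230 bp with ACBI-1 and 1009 to 1178 bp with DMSO, and the DND41 widths spread more, over 488 to 1245 bp with ACBI-1 and 455 to 1292 bp with DMSO. RefSeq promoters of 300 bases at these starts (GRCh38.p14) held 37 CpG at the upstream and 29 at the main start, against a median of 14 over 35116 promoters.

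The other 4 CDK6 regions with a peak in every library lay inside the gene body, at 20.2, 78.6, 193.9 and 212.4 kb downstream of the main start. None of the 4 changed its width with ACBI-1 past the test. The region at 20.2 kb, from 92442521 to 92443524, differed between the lines. Its peak was 776, 676, 897, 702, 606, 598, 643 and 640 bp wide in the MOLT4 libraries, against 460, 557, 605, 562, 452, 564, 597 and 400 bp in the DND41 libraries. All but 1 of the MOLT4 widths lay above the widest DND41 peak. The mean was 692 ± 101 bp in MOLT4 and 525 ± 76.2 bp in DND41 (SD, n = 8 each), a log2 difference of 0.40 (exact permutation test, adjusted p = 0.0308). Of the regions found in all 16 libraries, 6.16% were wider and 3.12% narrower in MOLT4 by the same test, and the median log2 difference was 0.04. Of the 12 members found in all 16 libraries this was the only such call, and without 1 library the call was kept in 12 of 16 cases.

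Regions found in every library cannot differ in presence. Of the 11 other CDK6 regions in at least 4 libraries, 9 were found in fewer ACBI-1 than DMSO libraries, 0 in more and 2 in equally many, or 81.8% in fewer. Of 33084 such regions in the genome, 75% were found in fewer ACBI-1 than DMSO libraries and 10.9% in more. The region at 23.9 kb, from 92439111 to 92439455, had a peak in 1 of 8 ACBI-1 libraries, of 151 bp in DND41 at 3 h. It had a peak in 7 of 8 DMSO libraries, of 142 to 343 bp, with MOLT4 at 24 h replicate 2 as the exception. This was the single region of the 5 genes to pass the test for treatment (exact permutation p = 0.0139, adjusted 0.0497). The call was at the edge: it was lost without any of 15 of the 16 libraries, kept without MOLT4 DMSO 24 h replicate 2, and lost with lists of equal length. Calls for treatment across the genome also fell, from 2260 to between 0 and 1112 without single libraries, and to 0 with lists of equal length. Its neighbour at 18.3 kb, from 92444838 to 92445119, had a peak in 0 of 8 ACBI-1 and 5 of 8 DMSO libraries, at 137 to 235 bp (exact permutation p = 0.0278, adjusted 0.0573). Deeper in the gene, the region at 188.2 kb (92274814 to 92275274) was found in 1 ACBI-1 and 6 DMSO libraries. The region at 202.2 kb (92260815 to 92261213) was found in 3 ACBI-1 and 8 DMSO libraries. Neither passed the exact permutation test (adjusted p = 0.0729 for both).

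**Figure D2:**
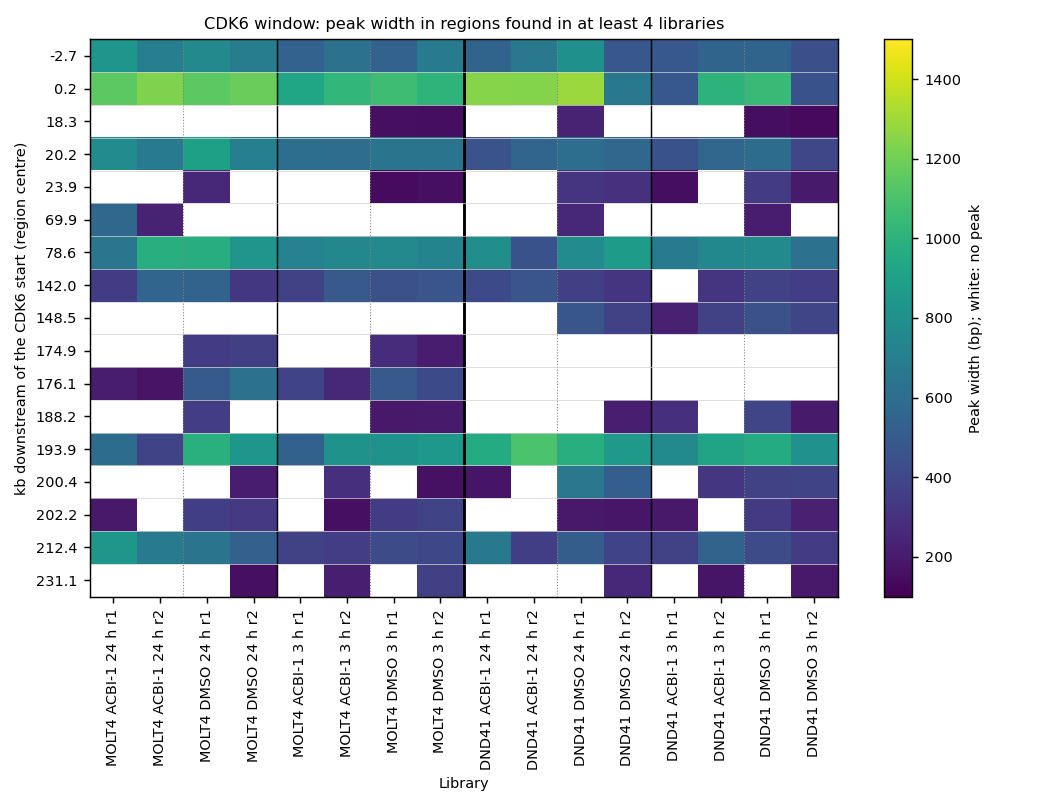
Peak width in bp (colour; white means no peak) at the 17 CDK6 regions found in at least 4 libraries, with regions ordered by kb downstream of the CDK6 start and libraries in columns. The 6 regions found in all 16 libraries are broad, and the rows that lack a peak in ACBI-1 columns are mostly narrow. The row at 176.1 kb is filled in MOLT4 only and that at 148.5 kb in DND41 only.

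Some CDK6 gene body regions marked the cell line. The region at 176.1 kb, from 92286808 to 92287441, had a peak in all 8 MOLT4 libraries and in 0 of 8 DND41 libraries (exact permutation test, adjusted p = 0.0111). Its width in MOLT4 was 204 and 176 bp with ACBI-1 against 498 and 623 bp with DMSO at 24 h. At 3 h it was 380 and 262 bp with ACBI-1 against 493 and 417 bp with DMSO. Every ACBI-1 peak was thus narrower than every DMSO peak of that line, at means of 256 ± 90.4 bp with ACBI-1 and 508 ± 85.3 bp with DMSO (SD, n = 4 each). This width was not tested, because widths were tested only in regions found in all 16 libraries. About 1 kb closer to the start, at 174.9 kb, the region from 92288119 to 92288497 had a peak in 0 of 4 ACBI-1 and 4 of 4 DMSO libraries of MOLT4 and in no DND41 library. Its exact permutation p of 0.0556 is the smallest a difference confined to 1 line can reach. In the other direction, the region at 148.5 kb, from 92314449 to 92314956, was found in 0 of 8 MOLT4 and 6 of 8 DND41 libraries (exact permutation test, adjusted p = 0.0267). In DND41 it had no peak with ACBI-1 against 476 and 372 bp with DMSO at 24 h, and 229 and 377 bp with ACBI-1 against 448 and 392 bp with DMSO at 3 h. The region at 200.4 kb, from 92262516 to 92263189, was found in 3 of 8 MOLT4 and 6 of 8 DND41 libraries (exact permutation test, adjusted p = 0.392). The region at 207.4 kb, from 92255707 to 92255968, was found in 3 MOLT4 and 0 DND41 libraries (exact permutation p = 0.167). Of regions in at least 4 libraries genome-wide, 2.75% had a peak in every MOLT4 library and in no library of DND41.

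CCND3, the gene of cyclin D3, lost fewer regions than CDK6 and did not pass the test. The lowest, median and highest number of regions were 8, 9 and 10 with ACBI-1, and 10, 10.5 and 12 with DMSO. The ranges met at 10 regions. The mean was 9.25 ± 0.707 with ACBI-1 and 10.6 ± 0.744 with DMSO (SD, n = 8 each), a difference of -1.38 regions or -12.9% (exact permutation p = 0.0139, adjusted 0.0565 over 11759 windows of that width). Of those windows 20% were called lower and 0.0255% higher. The unadjusted p is the smallest that these counts allow. With lists of equal length the difference was -0.5 regions (exact permutation test, adjusted p = 0.816). The call changed with single libraries: without MOLT4 ACBI-1 24 h replicate 1 the adjusted p was 0.0370, and without MOLT4 ACBI-1 3 h replicate 1 it was 0.0410 (exact permutation test). In MOLT4 both groups with DMSO had 10 regions in each library and those with ACBI-1 had 9 or 10. In DND41 the ACBI-1 libraries had 8 to 10 and the DMSO libraries 11 or 12. The difference between the lines in the treatment effect was 1.75 regions, MOLT4 minus DND41 (exact permutation p = 0.037, adjusted 1), and no test of the treatment effect between lines or times at the 4 windows passed its adjustment.

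Of the 2 CCND3 starts examined, the upstream start lacked a peak in some ACBI-1 libraries and the downstream start in none. The upstream start, in the region from 42016254 to 42016739 on chromosome 6, had a peak in 4 of 8 ACBI-1 and 8 of 8 DMSO libraries. With ACBI-1 its width was 194 bp in 1 and absent in the other MOLT4 library at 24 h, and 178 bp and absent at 3 h. In DND41 with ACBI-1 it was 279 and 212 bp at 24 h and absent in both libraries at 3 h. With DMSO the widths were 323, 269, 238 and 212 bp in MOLT4 and 459, 384, 343 and 257 bp in DND41, so peaks here were narrow even where present. The presence of the peak gave an exact permutation p of 0.0833, and this pattern, full in every DMSO library, could not reach 0.05. The downstream start, in the region from 41909149 to 41909822 and 107.1 kb into the gene, had a peak in all 16 libraries. Its width was 509 ± 84.6 bp with ACBI-1 and 481 ± 85.7 bp with DMSO (SD, n = 8 each; adjusted p = 0.636 by exact permutation). A difference between the 2 starts was not tested, and the downstream start was added after its region was seen. RefSeq (GRCh38.p14) lists another CCND3 start farther downstream, with 3 CpG in its promoter, whose peaks were not examined.

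The promoters of these starts are shown because 1 kept its peak call in every library and the other did not. They run from 250 bases before to 50 after the start and come from RefSeq (GRCh38.p14), matched by gene and by the order of the starts. Capitals mark matches, on either strand, to the letters TTCCCGC or TTTCCCGC (E2F; the shorter letters lie within the longer), TGTGGT (RUNX), GGGCGG (SP1), CCGGAAG (ETS) or CAGCTG (E-box).
CCND3 upstream start, chr6:42048639-42048938, minus strand: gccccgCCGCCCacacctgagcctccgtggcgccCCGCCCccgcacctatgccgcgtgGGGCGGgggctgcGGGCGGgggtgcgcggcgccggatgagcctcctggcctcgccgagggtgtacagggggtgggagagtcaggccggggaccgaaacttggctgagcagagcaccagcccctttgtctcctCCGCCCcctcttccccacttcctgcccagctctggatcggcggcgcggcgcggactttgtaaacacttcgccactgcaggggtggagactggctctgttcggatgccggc
CCND3 downstream start, chr6:41941759-41942058, minus strand: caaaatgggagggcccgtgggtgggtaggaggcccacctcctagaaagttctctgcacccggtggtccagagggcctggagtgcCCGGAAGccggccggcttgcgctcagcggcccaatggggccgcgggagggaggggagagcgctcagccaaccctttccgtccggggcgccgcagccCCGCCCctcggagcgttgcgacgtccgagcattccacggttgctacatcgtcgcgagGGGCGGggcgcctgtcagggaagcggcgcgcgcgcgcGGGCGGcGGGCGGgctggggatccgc
The upstream promoter held 5 matches to GGGCGG, and the downstream promoter 4 to GGGCGG and 1 to CCGGAAG. These letters occurred in 45% and 10.3% of 35116 promoters of the same length. Both were rich in CpG, with 29 at the upstream and 37 at the downstream start. No E2F, RUNX or E-box letters stood in either window, which says nothing of binding there.

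A region 3.0 kb inside CCND3, from 42013397 to 42013904, kept its peak in every library but was narrower with ACBI-1. Its width was 244, 198, 425 and 424 bp in MOLT4 and 337, 293, 239 and 409 bp in DND41 with ACBI-1. With DMSO it was 447, 418, 471 and 475 bp in MOLT4 and 403, 347, 437 and 437 bp in DND41 (24 h libraries first in each list). The ranges overlapped, with 2 MOLT4 ACBI-1 peaks of 3 h and 1 DND41 peak among the DMSO values. The mean was 321 ± 91.0 bp with ACBI-1 and 429 ± 41.1 bp with DMSO (SD, n = 8 each), a log2 difference of -0.47 (exact permutation p = 0.00154, adjusted 0.0473). Over all regions found in 16 libraries the median difference was -0.12, and 3.25% were called narrower and 0.0166% wider. The call held without only 2 of the 16 libraries, with adjusted p-values from 0.0390 to 0.182 in the exact permutation test.

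No other CCND3 region was called for presence or width. Of the 7 CCND3 regions in at least 4 but not all libraries, 6 were found in fewer ACBI-1 than DMSO libraries and 1 in more. Genome-wide, 75% of such regions were found in fewer and 10.9% in more. Regions at 26.2 and 38.5 kb in the gene body had a peak in all 16 libraries, as did the region at the start of the neighbouring gene TAF8, a TFIID subunit. The region at 31.6 kb (41984743 to 41985320) had a peak in 4 of 8 ACBI-1 and 8 of 8 DMSO libraries (exact permutation p = 0.0833), in libraries that only partly matched those of the upstream start. The region at 4.6 kb (42011875 to 42012236) was found in 5 ACBI-1 and 3 DMSO libraries, the reverse order (exact permutation p = 0.583). By line it was found in 2 MOLT4 libraries, both with ACBI-1 at 24 h, and 6 DND41 libraries (exact permutation p = 0.0833). The region from 41908344 to 41908810, within 1 kb of the downstream start, was found in 4 ACBI-1 and 6 DMSO libraries (exact permutation test, adjusted p = 0.777) and in 6 MOLT4 and 4 DND41 libraries (adjusted p = 0.716 by the same exact test). Regions with a peak numbered 9.75 ± 0.463 in MOLT4 and 10.1 ± 1.36 in DND41 (SD, n = 8 each; adjusted p = 0.661 by exact permutation).

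CCND2, the gene of cyclin D2, had few peaks in either line. Relative to the start its 3 regions lay at -4.1, -1.5 and 3.3 kb, and only 1 library had a peak within 1 kb of the start. This count depends on the exact place of the entered start, as the region at -1.5 kb came to 954 bp from it. The CCND2 start had no promoter entry and no spacing check, and spacings checked at other genes differed by up to 1109 bp. The region at -1.5 kb, from 4380896 to 4381948 on chromosome 12, was found in 7 ACBI-1 and 8 DMSO libraries. With ACBI-1 its width was 433 and 585 bp at 24 h and absent and 243 bp at 3 h in MOLT4, and 501, 589, 332 and 225 bp in DND41 in the same order. With DMSO it was 727, 887, 520 and 460 bp in MOLT4 and 930, 444, 600 and 447 bp in DND41. Within each line and time the ACBI-1 peaks were lower, or absent, except that both DND41 ACBI-1 peaks at 24 h were wider than the DND41 DMSO peak of 444 bp. The mean of the peaks present was 415 ± 152 bp with ACBI-1 (SD, n = 7) and 627 ± 198 bp with DMSO (SD, n = 8), a difference that was not tested because 1 library had no peak. The region at -4.1 kb was found in 6 ACBI-1 and 8 DMSO libraries, and both libraries without a peak were DND41 ACBI-1 replicate 2. Regions with a peak numbered 1.75 ± 0.707 with ACBI-1 and 2.13 ± 0.354 with DMSO (SD, n = 8 each; exact permutation p = 0.444). The difference of -0.375 regions ranged from -0.625 to -0.125 without single libraries. These counts allow no p below 0.111, so no call was possible, and the 11% lower and 0.00778% higher of the windows that could be tested give no comparison. CCND1, the third D-type cyclin gene, had no peak within 1 kb of its start in any library.

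**Figure D3:**
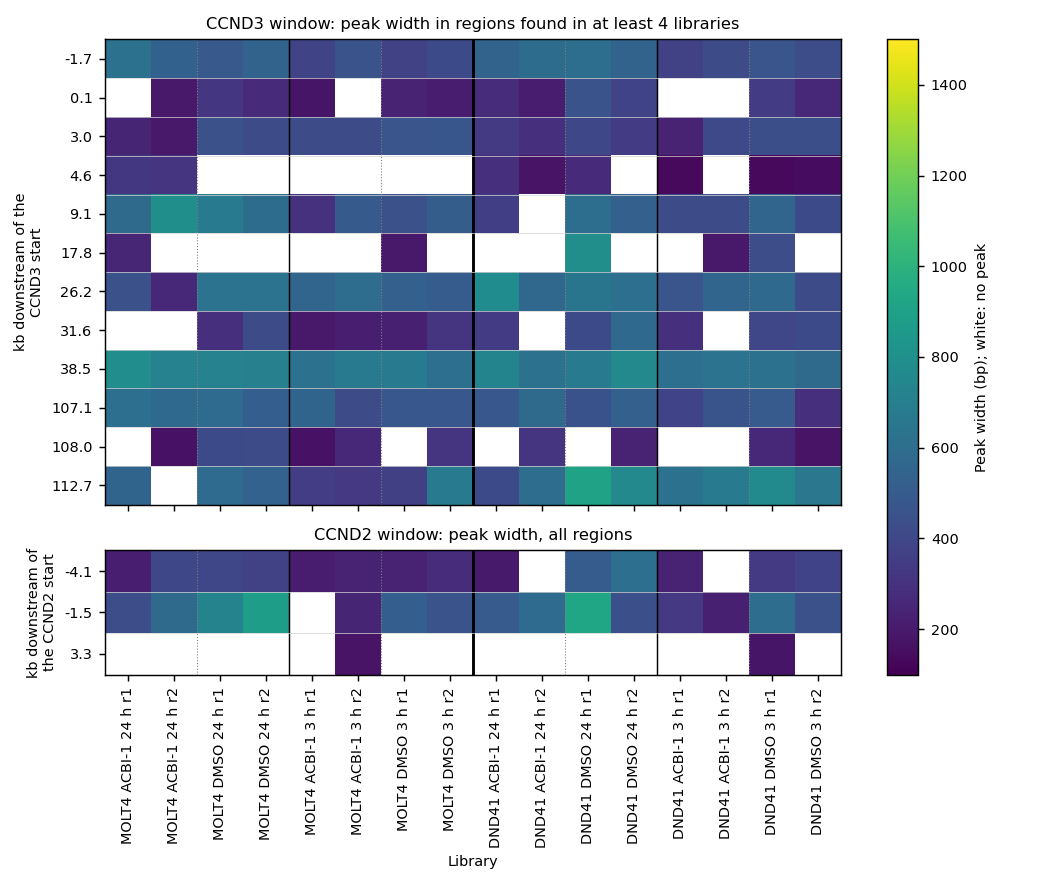
Peak width in bp (colour; white means no peak) at the 12 CCND3 regions found in at least 4 libraries and at the 3 CCND2 regions, by kb downstream of each start and by library. The row at 0.1 kb, the upstream CCND3 start, lacks a peak in 4 ACBI-1 libraries and in no DMSO library, whereas the row at 107.1 kb, the downstream start, is filled in all 16.

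The inhibitor locus separated the lines. In each of the 8 MOLT4 libraries the CDKN2A and CDKN2B window held exactly 1 region with a peak, whereas DND41 libraries held 3 to 6, with a median of 4.5. The ranges did not overlap. The mean was 1 in MOLT4 and 4.25 ± 1.16 in DND41 (SD, n = 8), a difference of -3.25 regions (exact permutation p = 0.00154, adjusted 0.0197), and 11.9% of 15275 windows of that width were called lower in MOLT4 and 16.9% higher. By treatment the mean was 2.5 ± 1.85 regions with ACBI-1 and 2.75 ± 1.98 with DMSO (SD, n = 8 each; exact permutation p = 0.778). These counts allow no p below 0.111, so no call was possible here, and the 11.2% lower and 0% higher of the windows that could be tested give no comparison.

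The single region of MOLT4 was the p14ARF start of CDKN2A, from 21993940 to 21995692 on chromosome 9, which is also where the antisense gene CDKN2B-AS1 begins on the other strand. It had a peak in all 16 libraries, and it was among the broadest of the 70 regions. Its width was 1277, 1442, 1513 and 1561 bp in MOLT4 and 1431, 1339, 1022 and 1505 bp in DND41 with ACBI-1. With DMSO it was 1590, 1506, 1302 and 1126 bp in MOLT4 and 1551, 1370, 1398 and 1066 bp in DND41. The means of 1415 ± 163 bp in MOLT4 and 1335 ± 193 bp in DND41 (SD, n = 8 each) did not differ beyond the spread (exact permutation test, adjusted p = 0.599). ACBI-1 left the width at 1386 ± 174 bp against 1364 ± 191 bp with DMSO (SD, n = 8 each; adjusted p = 0.886 by exact permutation).

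Relative to the p16 start the p14ARF region lies at -19.7 kb, and at the p16 start itself the lines parted. The region from 21974592 to 21975643 had no peak in any MOLT4 library and a peak in all 8 DND41 libraries (exact permutation test, adjusted p = 0.0111). In DND41 it was 916, 957, 943 and 1037 bp wide with ACBI-1 and 968, 994, 963 and 969 bp with DMSO. The widths were even, at 963 ± 52.0 bp with ACBI-1 and 974 ± 13.9 bp with DMSO (SD, n = 4 each). The region from 22005084 to 22006426, in the body of CDKN2B, showed the same split, with 0 of 8 MOLT4 and 8 of 8 DND41 libraries (exact permutation test, adjusted p = 0.0111). Its width in DND41 was more uneven, 889, 1214, 417 and 737 bp with ACBI-1 and 1072, 993, 1339 and 596 bp with DMSO. At the CDKN2B start itself no library of either line had a peak within 1 kb. The other 5 regions of the window were found in 1 to 4 DND41 libraries and in no MOLT4 library. The most frequent, from 21959541 to 21960180, was found in 1 ACBI-1 and 3 DMSO libraries of DND41, and those from 21965285 to 21965819 and from 21988641 to 21988884 in 1 of each. The last were a peak of 165 bp from 21966316 to 21966480 in 1 ACBI-1 library and a peak of 276 bp from 21981681 to 21981956 in 1 DMSO library. Of the 4 regions of the window in at least 4 libraries, 2 had a peak in all DND41 and no MOLT4 libraries, against 0.847% of such regions genome-wide.

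The 2 CDKN2A promoters are shown because MOLT4 kept the peak at 1 and had none at the other, with capitals as above.
CDKN2A p14ARF start, chr9:21995275-21995574, minus strand: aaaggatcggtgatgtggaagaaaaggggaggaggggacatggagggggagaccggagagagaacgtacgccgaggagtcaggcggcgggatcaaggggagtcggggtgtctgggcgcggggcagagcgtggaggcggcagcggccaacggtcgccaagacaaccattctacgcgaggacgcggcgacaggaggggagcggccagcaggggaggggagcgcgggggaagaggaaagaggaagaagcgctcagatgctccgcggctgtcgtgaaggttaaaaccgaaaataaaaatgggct
CDKN2A p16 start, chr9:21974808-21975107, minus strand: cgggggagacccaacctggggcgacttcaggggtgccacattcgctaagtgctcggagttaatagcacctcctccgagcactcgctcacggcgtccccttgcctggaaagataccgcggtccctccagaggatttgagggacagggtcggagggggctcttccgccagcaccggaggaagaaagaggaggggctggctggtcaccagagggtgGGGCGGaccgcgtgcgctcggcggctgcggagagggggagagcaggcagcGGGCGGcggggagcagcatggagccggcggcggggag
The p14ARF promoter held no match to any of the 6 motifs and the p16 promoter held 2 to GGGCGG. CpG numbered 28 at p14ARF and 26 at p16, and 26.2% and 30.1% of all promoters held as many. The CDKN2B promoter had 25 CpG, 2 matches to GGGCGG and 1 to CAGCTG, which 17.9% of promoters hold. 

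A missing peak can come from absent DNA or from closed chromatin, and peak lists cannot tell these apart, so the surroundings were examined from 21000000 to 23000000 on chromosome 9. In MOLT4 no library had a peak from 21883961 to 21993951, a stretch of 109991 bp that ends at the p14ARF region and takes in the p16 start. It was the fourth longest such stretch in the wider window and 6.54% of the 78818 stretches between MOLT4 peaks in the genome were as long. Its far end was the region from 21883714 to 21884067, with narrow peaks of 165, 247 and 140 bp in 3 MOLT4 libraries. Directly beyond that region lay another MOLT4 stretch without a peak, of 66220 bp. A further stretch of 29131 bp followed on the other side of the p14ARF region, from 21995669 to 22024799. Of the MOLT4 stretches in the genome, 35.3% were at least as long. DND41 also had a stretch of 29045 bp on that side, from 22006427 to 22035471. Within the stretch of 109991 bp DND41 had another constant region, from 21919473 to 21920433, with a peak in all 8 libraries. Such regions were not confined to that stretch. Of 59 regions of the wider window in at least 4 libraries, 4 had a peak in all DND41 and no MOLT4 libraries. The region from 21709420 to 21709903, outside the stretch, was among them. In the reverse direction there was 1, from 21559350 to 21560101. Genome-wide the shares were 0.847% and 2.75%. MTAP, the metabolic gene often lost together with CDKN2A, had a peak at its start in all 16 libraries, on the far side of the stretch. The MTAP peak was 1038 bp wide in MOLT4 and 1243 bp in DND41, a log2 difference of -0.27 (exact permutation test, adjusted p = 0.0499). KLHL9, farther out on that side, also had a peak in all 16 libraries. The starts of HACD4, IFNB1 and DMRTA1 had none in either line. Over the whole wider window MOLT4 libraries had 18 to 42 regions with a peak and DND41 libraries 29 to 63, with means of 29.4 ± 7.61 in MOLT4 and 46.6 ± 10.2 in DND41 (SD, n = 8 each).

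**Figure D4:**
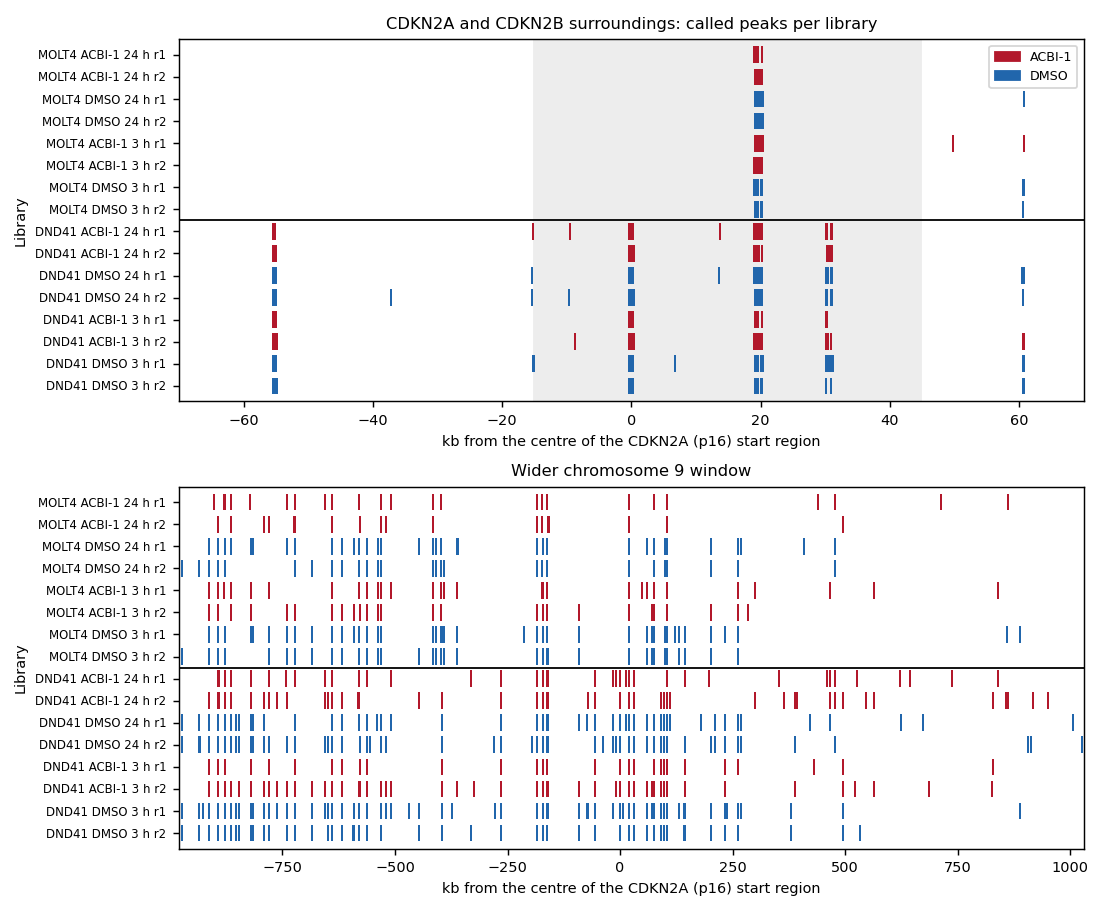
Called peaks by library (rows; red ACBI-1, blue DMSO) against distance in kb from the centre of the p16 start region; the upper panel spans 70 kb to each side with the CDKN2A and CDKN2B window shaded, the lower panel the wider chromosome 9 window. Marks of peaks are drawn at no less than a fixed width. All 16 libraries have the p14ARF peak about 20 kb to the right of the centre, and only DND41 rows have peaks at the centre, at about 30 kb and to the left of the shaded window in every library.

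The rest of the G1 pathway was open at nearly every start. Of 18 other genes, 15 had a peak within 1 kb of the start in all 16 libraries (share over all gene starts not determined). They included CDK4 and CDK2, the partner kinases, CDKN1B, which encodes the inhibitor p27, and RB1, RBL1 and RBL2, the retinoblastoma family. The E2F factors E2F1, E2F2 and E2F3 and their partner TFDP1 were also among them. Presence could be tested at few of them: 1 of the 18 had a region testable for treatment and 1 for line, against the genome-wide shares called of 27.9% lower with ACBI-1, and 40.8% higher and 23.3% lower in MOLT4. The gene testable for treatment, TFDP1, had a second region near its start that did not pass (exact permutation test, adjusted p = 0.0573), and the gene testable for line was CDKN1C. CDKN1A, which encodes the p53 target p21, lacked a peak in 1 library, DND41 with ACBI-1. CDKN1C, which encodes p57, had a peak in all 8 MOLT4 and 0 of 8 DND41 libraries (exact permutation test, adjusted p = 0.0111), the reverse of the p16 start. Its width in MOLT4 averaged 459 bp with ACBI-1 and 557 bp with DMSO. Among starts open in all libraries, the peak at CDKN2C, which encodes the p16 relative p18, averaged 1458 bp in MOLT4 and 969 bp in DND41, a log2 difference of 0.48. The peak at E2F2 averaged 807 bp in MOLT4 and 580 bp in DND41, a log2 difference of 0.61. By exact permutation the adjusted p was 0.0412 for both. Of the regions found in all 16 libraries, 6.16% were called wider and 3.12% narrower in MOLT4. No pathway start changed width with ACBI-1 past the test, which took 1 region per start. At E2F3, with 2 regions near the start, the peaks summed to 646 bp on average with ACBI-1 and 1228.5 bp with DMSO. This summed width was not tested.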

How the data were processed

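Groups were taken from the sample titles, because the labels give a conflicting cell line in a separate field for 8 of the 16 libraries. The line codes in the deposited peak names matched the title in all 16. Per the submitters' processing notes, Bowtie2, Picard, SAMtools, MACS2 2.1.1.2016030 and hg19 were used, with roles and settings not given in the sources used here. The deposited files were peak lists of 1 library each with chromosome, start, end and name, so the values used were the positions deposited by the authors. Peak heights, p-values and depth were not used here. Peak names carry the tag p03 in all 24 h libraries and p04 in all 3 h libraries, so time and whatever the tag marks cannot be told apart.

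Autosomes (1 to 22) and X were kept, and peaks with at least 1 base in common were merged. Treatment was tested two-sided with an exact permutation test of presence, exchanging labels within line and time (1296 exchanges), and line within time and treatment. Benjamini-Hochberg adjustment ran over all regions of the genome that could reach a p of 0.05. Counts per window were adjusted over the genome tiled in windows of the same width, and widths over all 12037 regions found in every library. Python 3.11.15, NumPy 2.4.6 and SciPy 1.17.1 were used, and the tests were tested on simulated presence calls.

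No hg19 annotation was used here. The starts of 42 genes or second starts were entered from general knowledge of hg19. Of 39 genes with an entry in RefSeq (GRCh38.p14), all lay on the same chromosome and 33 had a length within 10% of it. Spacings between starts differed by at most 1109 bp over 7 checked. Exon or intron was not assigned. RefSeq promoters were found for 4 of the 5 genes, as 8 sequences. CCND2 had no entry.

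The members and gene lists were chosen with earlier results of these data known, and the second starts of CDK6, CCND3 and CDKN2A and the start of TAF8 were added after the regions were seen. Regions named were those within 1 kb of a member start, the 5 with the smallest p for treatment and for line in each window, all regions of the CDKN2A and CDKN2B window, and the ends of the stretch without a peak. Regions found in all 16 libraries and the regions constant in 1 line outside the window were described after their values were seen. So were the width of the regions at 176.1 kb in CDK6 and -1.5 kb from CCND2, and the summed width at E2F3.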

Additional observations from a re-analysis of the deposited data

Results flagged for a closer look

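The values below lay apart from the other 3 libraries of the same line and treatment, with both times joined. In all, 32 such sets of 4 libraries were examined. For continuous values the rule used sets a library apart by chance in about 1 of 20 sets. That rate does not hold for counts, where 3 tied libraries always set the remaining library apart if it differs. The region counts below were all of this kind. No reason was tested.

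In the CCND3 window, MOLT4 ACBI-1 24 h replicate 1 had 4597 bases covered by peaks, more than the other MOLT4 ACBI-1 libraries, which had 3737 to 3875. DND41 DMSO 3 h replicate 1 had 12 CCND3 regions with a peak, against 11 in each of the other DND41 DMSO libraries, and 3 CCND2 regions, against 2 in each of them. In the CDKN2A and CDKN2B window, DND41 DMSO 3 h replicate 2 had 3 regions with a peak, against 5 in each of the other DND41 DMSO libraries.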

How the results depend on the processing

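Of 816 recomputed values, 735 were counted as kept, as they did not change sign and stayed called or not called. Values that could not be tested counted as not called, and a value of 0 as no change of sign. Numbers of called regions were judged by their ratio instead. The CDK6 count with ACBI-1 stayed called without any single library (-5.25 to -4 regions). It was -0.75 with lists of equal length (26145 peaks), where the counts allow no p of 0.05 or less. The CDK6 count was -3.75 at 24 h only and -5.5 at 3 h only, where the smallest possible p is 0.0556. The CCND3 count with ACBI-1 became called with a minimum peak width of 170 bp (-1.5) and with regions in at least 2 libraries (-1.38), was -0.5 with lists of equal length, and ranged from -1.5 to -1.25 without single libraries. That at CCND2, -0.375, ranged from -0.625 to -0.125. The CDKN2A and CDKN2B count with ACBI-1 ranged from -0.625 to 0.125, with the positive value without DND41 ACBI-1 24 h replicate 2. The 1 region called for treatment became 0 with lists of equal length, with a minimum width, with peaks joined by midpoints within 250 bp and with no strata, and ranged from 0 to 1 without single libraries. Genome-wide, 2260 regions were called for treatment, 0 with lists of equal length and 0 to 1112 without single libraries. The 4 regions called for line were 4 to 5 without single libraries. The line difference at CDK6, never called, was -0.25 at 24 h only and -0.25 to 1 without single libraries, and that at CCND2 was -0.125 to 0.375. At CDKN2A and CDKN2B the line difference was -3.75 at 24 h only and -2.75 at 3 h only. The causes were not tested beyond the shorter lists and fewer libraries that these settings make by construction. Replicate numbers did not pair the libraries (correlations of -0.0400 to 0.000901 between same-numbered libraries). With a replicate block the CDK6 count of -4.63 had an adjusted p of 0.0489 and the CDKN2A and CDKN2B line difference of -3.25 an adjusted p of 0.0465. The block ended the calls on width at 42013397 on chromosome 6 (adjusted 0.127) and 92442521 on chromosome 7 (adjusted 0.0832), all in the exact permutation test. The CDK6 regions starting at 92444838 and 92255707 had no peak left with lists of equal length. Settings of 1 time were added after seeing the data. Read depth is unknown, so no detection limit can be given.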
